A study of Mus musculus with 7 samples.

Results

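The genes described here are 31 messenger RNAs that the literature describes as direct targets of the microRNA miR-155, measured in splenic B cells of Eµ-miR-155 transgenic mice and of wild-type mice. They were chosen by name, with earlier results of these data known. The platform annotation used here names 29 of the 31 with a probe set of their own, and Picalm and Ripk1 were not analysed here. Of the 29 genes, 26 were above background and could be tested, among 9517 genes tested in all.

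The wild-type group (WT) holds B cells of 4 mice of the FVB strain, and the transgenic group (TG) holds B cells of 3 FVB mice that carry miR-155 under the Eµ enhancer, an immunoglobulin heavy chain element active in the B lineage. No treatment was given to either group by the labels, which state neither age nor sex. B cells were taken from the spleen with a magnetic isolation kit, and the RNA of each mouse was hybridised to 1 array. Values are log2 GCRMA levels as deposited by the authors. Their minimum is 2.17, and levels of 4 or less count here as not above background.

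MicroRNAs are short RNAs that guide Argonaute proteins to messenger RNAs, mostly through pairing of the seed near their 5′ end with sites in the target, and the paired messengers are translated less and degraded faster. miR-155 is processed from the transcript of the host gene Mir155hg. It is induced when B cells, T cells and macrophages are activated, it is needed for normal germinal centre responses, and its overexpression in the B lineage of mice is known to lead to B cell malignancy.

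The sequences of miR-155 are shown because the seed is the part by which a microRNA mainly recognises its targets. They are credited to RefSeq with build GRCm38.p6, run 5′ to 3′, and have the seed (bases 2 to 8) in capitals. The guide strand miR-155-5p lies at chr16:84714143-84714165 on the plus strand and the strand from the other arm, miR-155-3p, at chr16:84714182-84714202.
mmu-miR-155-5p: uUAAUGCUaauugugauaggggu
mmu-miR-155-3p: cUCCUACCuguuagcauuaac
A messenger that pairs with the whole seed of the 5p strand carries the bases AGCAUUA. Among 1738 mature mouse microRNAs in the RefSeq table, 1 has this seed, miR-155-5p itself, so no other microRNA in that table shares it. Target sites in the messengers themselves were not analysed here.

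Transgenic replicate 3 stood apart from the other arrays. Pearson's r across tested probe sets was 0.987 to 0.993 between wild-type arrays, 0.995 between transgenic replicates 1 and 2, and 0.967 and 0.975 between these and transgenic replicate 3. Between the genotypes r was 0.962 to 0.978 for transgenic replicates 1 and 2 and 0.917 to 0.931 for replicate 3, so transgenic replicate 1 was closer to each wild-type array than to transgenic replicate 3. Of 8 T cell genes with a probe set, 6 stayed at or under 4 throughout the wild-type group. On transgenic replicate 3 Cd3d stood at 10.70 and Thy1 at 10.78, against 2.19 and 2.17 on transgenic replicate 2. Genes of mature B cells were present on every array, and all 17 tested had a lower mean in the transgenic group, by a median of -0.26. By Xist and the Y-linked gene Eif2s3y, wild-type replicates 3 and 4 were male and the other 5 arrays female, so genotype is partly confounded with sex. In such bulk isolates fewer cells of a type and less RNA per cell cannot be told apart.

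The level of the host transcript Mir155hg was not distinguishable between the groups. It stood at 6.42, 5.60, 5.12 and 5.02 on the wild-type arrays and at 5.41, 5.33 and 6.04 on the transgenic arrays, a difference of 0.05 ± 0.37 (SE, limma adjusted p = 0.937). These values overlap throughout. Whether the transgene contains the sequence of this probe set is not given in the labels, so the value is no check of genotype, and mature miR-155 is not measured by this array.

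Most described targets were a little lower in transgenic B cells, few passed the test, and the largest differences went the other way. Of the 26 tested, 1 gene passed as lower (Hivep2), 2 passed as higher (Myb and Ikbke) and 23 did not pass limma's test at an adjusted p under 0.05. Among all 9517 genes tested, 2.56% passed as lower and 8.11% as higher, so both shares of the targets, 3.85% and 7.69%, were near the background. The median difference of the targets was -0.18 on the log2 scale, against 0.00 for all genes, and 19 of the 26 (73.1%) had a difference below 0, against 49.3% of all genes.

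Whether the groups overlapped gives a second description of the same values. For 11 of the 26 targets (42.3%) every transgenic value lay below every wild-type value, which held for 10.4% of all genes. For 3 targets (11.5%) every transgenic value lay above, against 19.5% of all genes. At a looser threshold, an adjusted p under 0.1, 10 targets were lower (38.5%, against 5.61% of all genes) and 3 were higher, against 14% of all genes. These shares are descriptions and carry no test over the set of targets, since the genes of one array are not independent and the set was chosen with earlier results of these data known. Mature B cell genes were lower by a median of -0.26 in these isolates, and their part in the targets' differences was not tested.

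**Figure D1:**
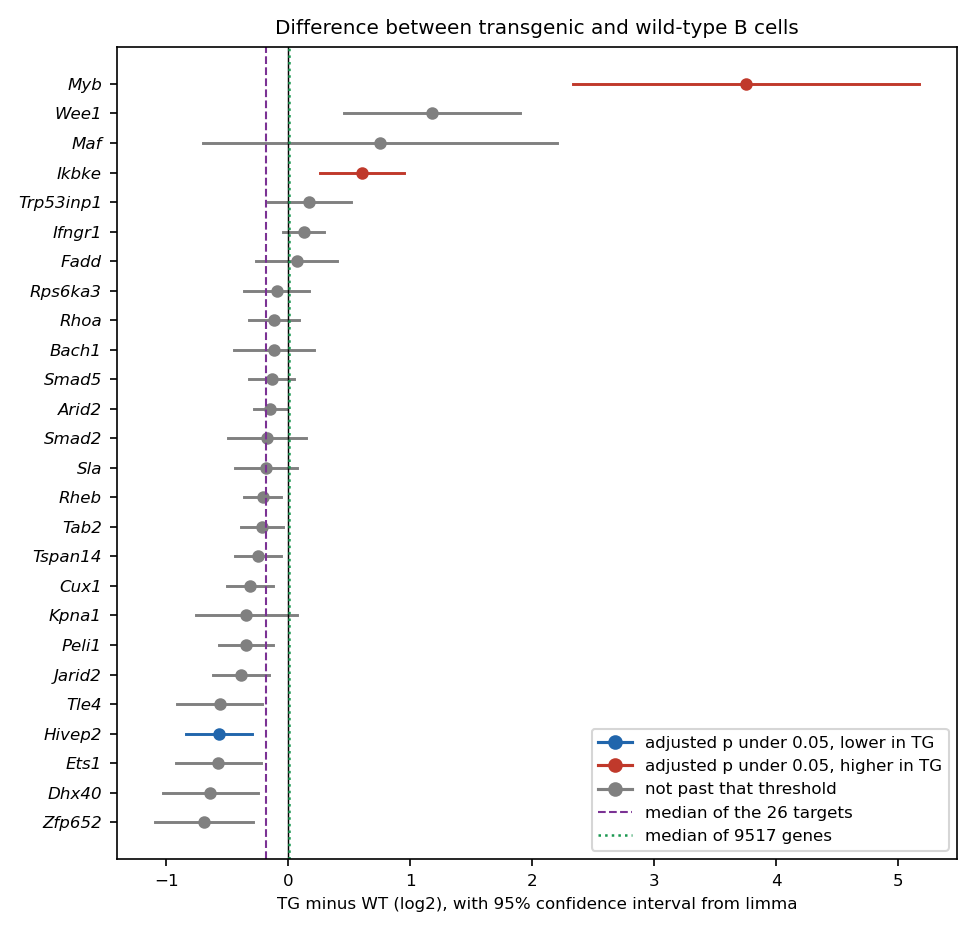
Difference between transgenic (TG) and wild-type (WT) B cells for each of the 26 tested targets on the log2 scale, with its 95% confidence interval from limma, and the medians of the targets (dashed) and of all 9517 genes (dotted). Most points lie between -0.7 and 0.2, left of the median of all genes, while Myb stands at 3.75.

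The transcription and chromatin regulators held Hivep2, the target that passed as lower, and Myb, which passed as higher. Of 11 genes in this group 10 were tested, 8 had a difference below 0, and the group's median was -0.35. Hivep2, which encodes a large zinc finger protein that binds NF-kB-like enhancer motifs, was at 9.87, 9.86, 9.51 and 9.88 on the wild-type arrays and at 9.35, 9.11 and 9.17 on the transgenic arrays. The groups did not overlap, and the wild-type value nearest to the transgenic ones was that of replicate 3. Hivep2 fell by 0.57 on the log2 scale, a 1.48-fold decrease (SE 0.11, limma adjusted p = 0.0339). This was the 1 target that passed as lower, and it passed without wild-type replicate 3 or transgenic replicate 1. Leaving out wild-type replicate 1, 2 or 4 gave an adjusted p of 0.0811, 0.0950 and 0.0848. Leaving out transgenic replicate 2 or 3 gave 0.114 and 0.0716, and over these fits the difference lay between -0.55 and -0.52.

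Zfp652, encoding a zinc finger repressor, had the largest negative difference of the 26. Its values were 8.57, 8.77, 8.57 and 9.02 in wild type and 8.24, 8.17 and 7.71 in transgenic cells. The difference was -0.69 ± 0.17 (SE), and with an adjusted p of 0.0512 it did not pass. Transgenic replicate 3 was the lowest array, and the other two transgenic arrays also lay below all of wild type.

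Ets1 encodes a transcription factor of resting lymphocytes that restrains plasma cell differentiation. It was at 14.05, 14.17, 13.95 and 14.21 in wild type and at 13.75, 13.65 and 13.17 in transgenic cells, a difference of -0.57 ± 0.15 (SE, adjusted p = 0.0578). Tle4, a corepressor of the Groucho family that works with PAX5 among others, was at 10.70, 10.48, 10.46 and 10.56 in wild type and at 10.16, 10.17 and 9.63 in transgenic cells, a difference of -0.56 ± 0.15 (SE, adjusted p = 0.0611). Neither gene passed, their groups did not overlap, and both were lowest on transgenic replicate 3.

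Jarid2 and Cux1 differed by less, and each was tight in 1 group, Jarid2 in wild type and Cux1 in transgenic cells. Jarid2, a cofactor that recruits Polycomb repressive complex 2, was at 9.99 to 10.08 on the 4 wild-type arrays and at 9.69, 9.43 and 9.83 on the transgenic arrays (-0.39 ± 0.10 SE, adjusted p = 0.0545). Its lowest transgenic value was that of replicate 2, not replicate 3. Cux1, a homeodomain transcription factor, was at 11.02, 10.79, 11.11 and 11.01 in wild type and at 10.68, 10.66 and 10.66 in transgenic cells (-0.31 ± 0.08 SE, adjusted p = 0.0560). The transgenic values of Cux1 spanned 0.02, the smallest range of any tested target among the transgenic arrays.

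Arid2 and Bach1 showed smaller differences. Arid2, a subunit of the PBAF chromatin remodelling complex, differed by -0.15 ± 0.06 (SE, adjusted p = 0.140), and its highest transgenic value equalled its lowest wild-type value to 2 decimals, 10.60. Bach1, a heme-regulated repressor, was at 8.82 and 8.76 on transgenic replicates 1 and 2, below the wild-type range of 8.99 to 9.24, and at 9.26 on replicate 3, above it. Its difference was -0.12 ± 0.14 (SE, adjusted p = 0.574).

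Myb rose, by far the largest difference of the set. This regulator of blood progenitors and early B cell precursors was at 5.64, 5.92, 6.34 and 6.58 in wild type and at 8.88, 9.36 and 11.36 in transgenic cells. The lowest transgenic array lay 2.29 log2 units above the highest wild-type array. The difference was 3.75 ± 0.59 (SE), a 13.4-fold increase (limma adjusted p = 0.0215), and 99.4% of all genes tested had a difference no larger. Without transgenic replicate 3 it was 3.00 (adjusted p = 0.00944). Its adjusted p rose above 0.05 without any 1 of the wild-type arrays (0.0557, 0.0699, 0.0574 and 0.0531 without replicates 1 to 4) or without transgenic replicate 2 (0.0756).

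Maf and Meis1 were low or absent in most isolates. Maf, a transcription factor known in T helper cells, plasma cells and macrophages, was at 5.52 to 5.70 in wild type, stood at 5.53 and 5.44 on transgenic replicates 1 and 2, and reached 7.98 on transgenic replicate 3 alone. Its fitted difference of 0.75 ± 0.61 (SE, adjusted p = 0.427) was -0.08 without that array. On the same array the mean of the 3 tested T cell genes was 9.43, against 4.57 to 4.83 in wild type. That of the tested macrophage and monocyte genes was 9.08, against 5.02 to 7.62. For the plasma cell genes it was 11.42, against 10.04 to 10.34. Each of these means was highest on that array, and their part in the Maf value was not tested. The T cell gene Cd3g was at 2.17 throughout wild type, so the filter fixed its direction. Meis1, a homeobox gene of blood stem cells, was at 2.42, 2.93, 3.02 and 2.92 in wild type and at 4.13, 3.15 and 3.97 in transgenic cells, so it was above background on 1 array and was not tested.

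**Figure D2:**
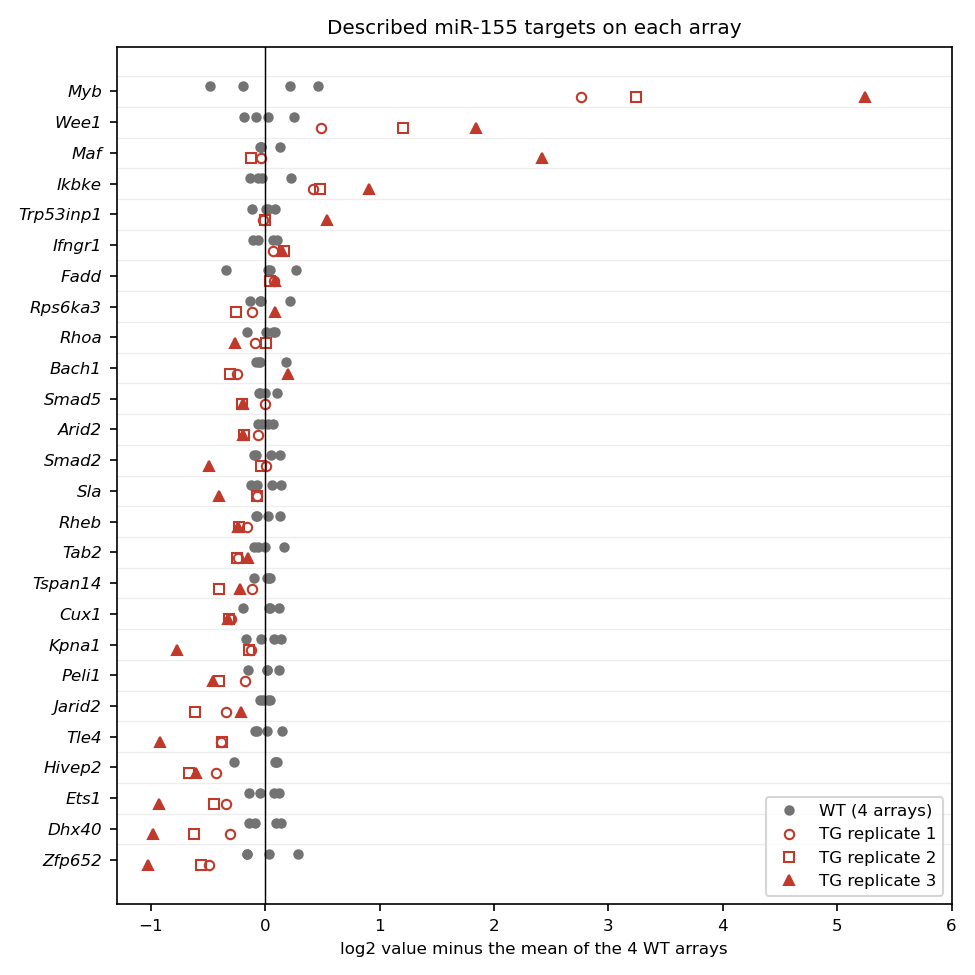
Each of the 26 tested targets on each of the 7 arrays, as the log2 value minus the mean of the 4 wild-type (WT) arrays, with wild-type arrays as filled circles and the 3 transgenic (TG) replicates as separate symbols. Transgenic replicate 3 (triangles) is the lowest transgenic array for 12 of the 26 targets, near the share over all genes (49.2%), and is far above the others for Maf and Myb.

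Among the immune, death and cytokine signalling targets 1 gene passed, and it was higher. The group holds 10 genes, of which 8 were tested. Ikbke, encoding the IKK-epsilon kinase of innate immune and NF-kB signalling, was at 8.52, 8.27, 8.22 and 8.16 in wild type and at 8.71, 8.77 and 9.20 in transgenic cells. The groups did not overlap, and the distance between the nearest arrays was 0.19, against 0.16 for Hivep2. Ikbke rose by 0.60 ± 0.14 (SE, limma adjusted p = 0.0499), and this call lay at the threshold: without any 1 of the 7 arrays its adjusted p was 0.0512 to 0.125, with differences between 0.45 and 0.69.

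Peli1 and Tab2, regulators of Toll-like receptor and interleukin-1 receptor signalling, had lower values in transgenic cells. Peli1, an E3 ubiquitin ligase, was at 11.48, 11.38, 11.21 and 11.38 in wild type and at 11.19, 10.96 and 10.91 in transgenic cells, a difference of -0.35 ± 0.09 (SE, adjusted p = 0.0632). Tab2, an adaptor that links TRAF6 to the kinase TAK1, was at 11.80 to 12.06 in wild type and at 11.66, 11.65 and 11.74 in transgenic cells, a difference of -0.21 ± 0.07 (SE, adjusted p = 0.110). For both the groups did not overlap and the test was not passed.

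The remaining members of this group overlapped between the genotypes. The transducers of TGF-beta and bone morphogenetic protein signals, Smad2 and Smad5, differed by -0.17 ± 0.13 (adjusted p = 0.410) and -0.14 ± 0.08 (SE, adjusted p = 0.279). Smad2 was at 10.07 and 10.02 on transgenic replicates 1 and 2, inside the wild-type range of 9.96 to 10.19, and at 9.56 on replicate 3. Sla, an adaptor that dampens antigen receptor signalling, showed the same pattern, with 11.41 on both of the first transgenic arrays and 11.08 on replicate 3 against 11.36 to 11.62 in wild type (-0.19 ± 0.11 SE, adjusted p = 0.283). Ifngr1, a chain of the interferon-gamma receptor, and Fadd, the adaptor of death receptors, differed by 0.13 ± 0.07 and 0.07 ± 0.14 (SE, adjusted p = 0.265 and 0.764).

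Socs1, the inhibitor of JAK and STAT signalling that is among the best known targets of miR-155, could not be compared. It was at the lowest value of 2.17 on all 4 wild-type arrays and on transgenic replicates 1 and 2, and at 7.44 on transgenic replicate 3. On that array T cell genes were also high, as given above, and their part in the Socs1 value was not tested.

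The growth, cell cycle and cytoskeleton targets held Wee1, the second largest positive difference. Wee1 encodes the kinase that holds back entry into mitosis by phosphorylating CDK1. It was at 6.28, 5.84, 5.95 and 6.05 in wild type and at 6.52, 7.23 and 7.87 in transgenic cells, a difference of 1.18 ± 0.30 (SE, adjusted p = 0.0588). The groups did not overlap and the test was not passed, while the confidence interval ran from 0.46 to 1.90. The dimmer of its 2 tested probe sets differed by less (0.47 ± 0.25 SE, adjusted p = 0.245), with overlapping groups. All 13 tested cell cycle genes had a higher mean in transgenic cells, and 12 of them passed as higher, against 8.11% of all genes. The mean of the 13 ranged from 6.76 to 7.90 in wild type and stood at 9.08, 9.47 and 10.50 on the transgenic arrays.

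Rheb, the GTPase that activates mTORC1, was the 1 member of this group with transgenic values below all of wild type. It was at 10.93, 10.92, 11.13 and 11.02 in wild type and at 10.84, 10.77 and 10.76 in transgenic cells (-0.21 ± 0.06 SE, adjusted p = 0.0844). The GTPase gene Rhoa, a regulator of the actin cytoskeleton, differed by -0.12 ± 0.09 (SE, adjusted p = 0.388), and Rps6ka3, which encodes the ribosomal S6 kinase RSK2, by -0.10 ± 0.11 (SE, adjusted p = 0.579). Trp53inp1, a stress gene induced by p53, was at 12.49 and 12.51 on transgenic replicates 1 and 2, inside the wild-type range of 12.39 to 12.59, and at 13.05 on replicate 3. Its difference was 0.17 ± 0.14 (SE, adjusted p = 0.433).

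The trafficking and RNA group had 3 tested members, all with differences below 0. Dhx40, encoding an RNA helicase, was at 10.25, 10.20, 10.48 and 10.44 in wild type and at 10.03, 9.72 and 9.36 in transgenic cells, a difference of -0.64 ± 0.16 (SE, adjusted p = 0.0571). Tspan14, a tetraspanin that partners the protease ADAM10, was at 10.34 to 10.48 in wild type and at 10.32, 10.04 and 10.22 in transgenic cells (-0.25 ± 0.08 SE, adjusted p = 0.0981). The groups of both genes did not overlap, by 0.02 for Tspan14, and neither gene passed.

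Kpna1, an importin that carries proteins into the nucleus, was set apart by 1 array in its brightest probe set. In its second probe set all 3 transgenic values, 9.45, 9.28 and 8.76, lay below the wild-type range of 9.53 to 9.69 (adjusted p by limma 0.113). The brightest was at 9.73 and 9.71 on transgenic replicates 1 and 2, within the wild-type range of 9.68 to 9.99, and at 9.09 on replicate 3. Its difference was -0.34 ± 0.17 (SE, adjusted p = 0.233). Cyp2u1, a cytochrome P450, was between 2.32 and 2.61 on every array, not above background, and was not tested.

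Other probe sets of the same genes mostly pointed the same way. The 26 tested targets had 65 tested probe sets, of which 52 had a difference below 0. By brightest probe sets this held for 49.3% of all genes, and targets with several probe sets weigh more in the 52. Of the 65, 7 passed as lower, against 3.65% of all probe sets tested, and 4 passed as higher, against 5.63%. The 7 belonged to 6 genes: Hivep2, Zfp652, Jarid2, Tle4, Tab2 and Peli1, the last with a pair of them. Probe sets of 1 gene measure the same RNA, so they are checks of the gene's value and not further replicates. Among the 18 targets with 2 or more tested probe sets, 17 had the same sign in all of them.

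For several targets whose brightest probe set missed the threshold, a dimmer one passed. In Zfp652 the dimmer probe set differed by -0.63 (limma adjusted p = 0.0488), in Jarid2 the dimmest differed by -0.49 (adjusted p = 0.0387), and in Tle4 the second differed by -0.59 (adjusted p = 0.0383). The second probe set of Tab2 stood at 9.93 to 10.06 in wild type and at 9.71 to 9.74 in transgenic cells (-0.25 ± 0.05 SE, adjusted p = 0.0343). Peli1 had 5 tested probe sets, all lower, from -0.61 to -0.20. By contrast the second probe set of Hivep2 did not pass (-0.36, adjusted p = 0.117).

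All 3 probe sets of Myb passed, with differences of 3.75, 3.51 and 4.01 and adjusted p of 0.0215, 0.0248 and 0.0223. The brightest of them carries a name ending by which the manufacturer marks probes that may also match other transcripts, and the other two do not. The 4 probe sets of Ets1 lay between -0.71 and -0.44 and the 5 of Kpna1 between -0.47 and -0.34, and none of these passed.

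Cux1 was the target whose probe sets disagreed. Of its 7 tested probe sets 5 had differences from -0.36 to -0.05 and the other two 0.22 and 0.26. The one at 0.22 was at 9.47, 9.50, 9.45 and 9.67 in wild type and at 9.70, 9.83 and 9.70 in transgenic cells, without overlap of the groups and opposite in direction to the brightest (adjusted p = 0.108). None of the 7 passed. In Rhoa, a dim probe set went from 6.79 to 6.90 in wild type to 6.51, 5.88 and 5.59 in transgenic cells (-0.84, adjusted p = 0.0519), while the brighter pair differed by -0.12 and -0.13.

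**Figure D3:**
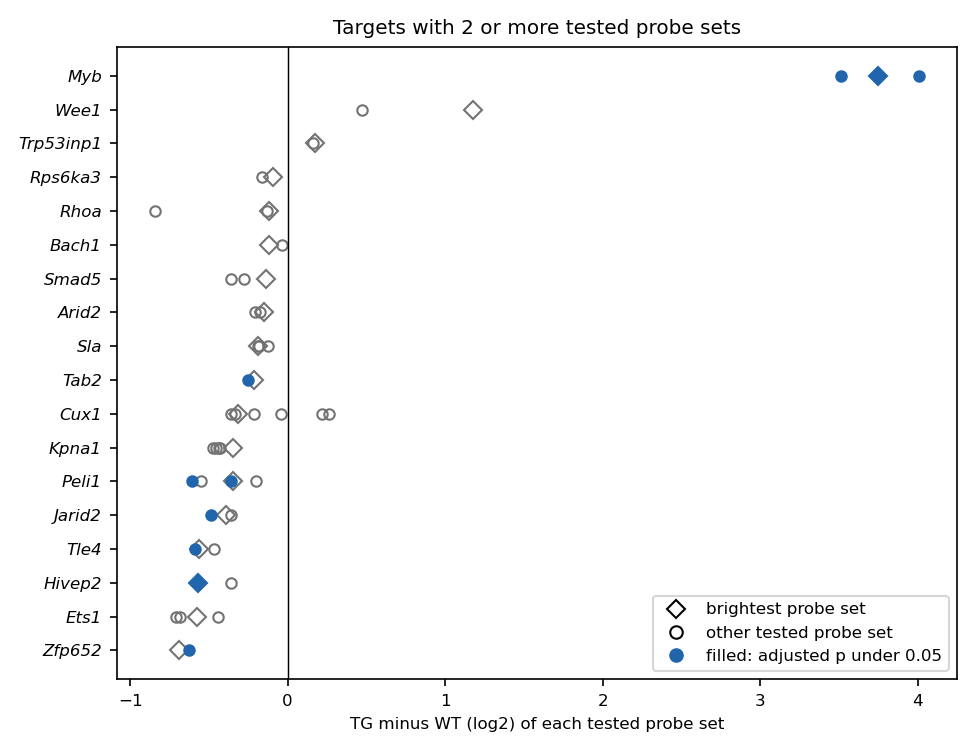
Difference between transgenic and wild-type B cells (TG minus WT, log2) for every tested probe set of the 18 targets with 2 or more of them, with the brightest as a diamond and filled symbols for an adjusted p under 0.05. Cux1 is the 1 gene with probe sets on both sides of 0, and all 3 of Myb lie between 3.51 and 4.01.

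Most targets spread wider over the transgenic than over the wild-type arrays. The range over the 3 transgenic arrays exceeded the range over the 4 wild-type arrays for 18 of the 26 targets, against 53.7% of all genes. The median standard deviation of the targets was 0.12 in wild type and 0.20 in transgenic cells, against 0.11 and 0.14 for all genes. The median deviation of the targets from the wild-type mean was -0.12, -0.22 and -0.22 on transgenic replicates 1, 2 and 3, while that of all genes was 0.04, 0.01 and -0.03. Below their wild-type mean were 20, 19 and 17 of the 26 targets on transgenic replicates 1, 2 and 3. Of all genes 41.3%, 46.2% and 54% were below it on these arrays. On wild-type replicates 1 to 4 the number of targets was 14, 18, 15 and 4. For 15 targets all 3 transgenic values were below that mean, which held for 31.3% of all genes.

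Several single-array patterns sat on transgenic replicate 3. By their brightest probe sets Smad2, Sla and Kpna1 were low there and within the wild-type range on both other transgenic arrays. The second probe set of Kpna1 was below that range on all 3 transgenic arrays. Maf, Trp53inp1 and Socs1 stood there above all 6 other arrays. Leaving that array out, Jarid2 and Tle4 passed as lower (adjusted p = 0.0337 and 0.0462), Myb passed as higher, Hivep2 and Ikbke did not pass (0.0716 and 0.0700), and 21 of the 26 differences were below 0. With wild-type replicate 4 also left out, Myb alone passed (3.15, adjusted p = 0.0221).

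Against wild-type replicates 1 and 2 alone, the wild-type arrays that share the high Xist level of the transgenic mice, none of the 26 passed by limma (8 were lower and 2 higher at an unadjusted p under 0.05). The median was -0.15, and 20 of 26 were below 0. Single differences moved, with Rhoa at -0.04 in place of -0.12 and Rps6ka3 at -0.19 in place of -0.10, and Fadd changed sign to -0.08. Hivep2 differed by -0.65 (adjusted p = 0.110), Myb by 4.09 (0.134) and Ikbke by 0.50 (0.250). With the Xist level as a covariate on all 7 arrays none passed by limma either (8 lower and 4 higher at an unadjusted p under 0.05), with differences of -0.66, 4.08 and 0.50 for these 3 genes.

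The 3 tested targets whose transgenic values all lay above wild type moved beside marker genes of other cells and of cell division. With Myb left out, the mean of the tested blood progenitor genes Kit, Flt3 and Cd34 was 3.98 to 4.24 in wild type and 6.47, 7.12 and 8.25 on transgenic replicates 1, 2 and 3, highest on the array where Myb was highest. Of the 8 progenitor genes with a probe set, Gata2, Hoxa9 and Mecom were at or under 4 on every array. All 6 tested granulocyte genes passed as higher, with a median of 7.69, against 8.11% of all genes. Of the 4 tested natural killer cell genes 3 passed as higher. Cd34, several of these granulocyte genes and those 3 natural killer cell genes were at or under 4 throughout wild type. Such genes could be tested only if above 4 on all 3 transgenic arrays. Their direction was therefore fixed by the filter. Which cells of the isolates carry Myb, Wee1 and Ikbke was not tested.

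**Figure D4:**
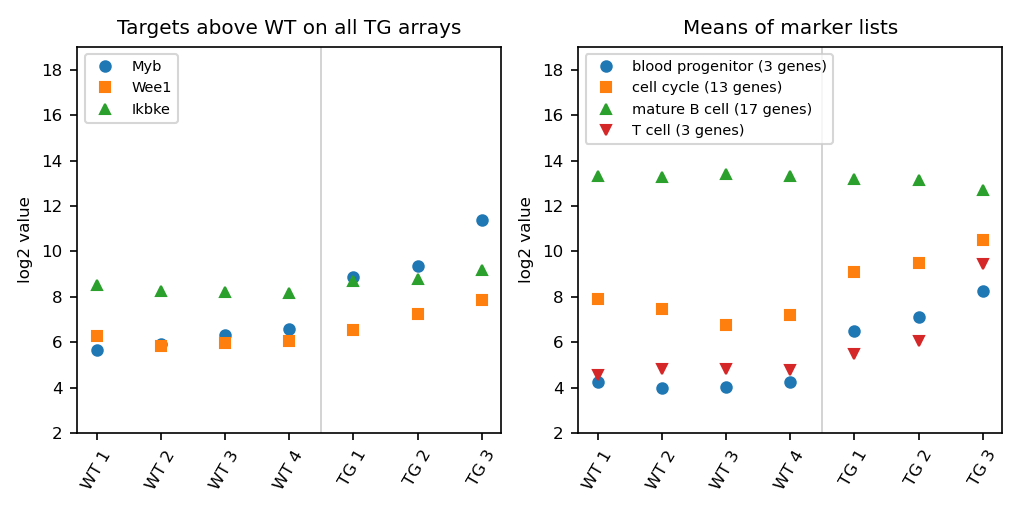
Left, log2 values on each array of the 3 tested targets whose transgenic (TG) values all lay above wild type (WT). Right, the mean log2 value of the tested genes of 4 marker lists on the same arrays, with Myb left out of the blood progenitor list, showing the T cell genes at 9.43 on transgenic replicate 3.

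A second list of described miR-155 targets, outside the 31, was measured for comparison. Of 21 named genes 15 were tested, and 0 passed in either direction by limma (7 had an unadjusted p under 0.05, 3 of them lower). The clock gene Arntl differed by -0.42 (adjusted p = 0.0550), the hypoxia factor gene Hif1a by -0.32 (0.0603) and Inpp5d, encoding the phosphatase SHIP1, by -0.20 (0.0684). These 3 had the smallest p of the list. Their transgenic values lay below all of wild type, which held for 10.4% of all genes. Some other genes of the list had transgenic values above all of wild type, as did 19.5% of all genes. The list's median was -0.05, with 8 of 15 below 0.

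Genes of the microRNA machinery were measured as well, since they act between a microRNA and its targets. Of 19 tested, 1 passed as higher and 2 as lower, against 8.11% and 2.56% of all genes. The median was -0.10, and 13 had a difference below 0, against 49.3% of all genes. Dicer1, the enzyme that cuts microRNA precursors, was at 9.62, 9.63, 9.69 and 9.76 in wild type and at 9.44, 9.42 and 9.40 in transgenic cells, and fell by 0.25 (SE 0.05, limma adjusted p = 0.0379). Tnrc6c, a GW182 protein that couples Argonaute to messenger decay, fell by 0.37 (SE 0.06, adjusted p = 0.0233). Prkra, encoding the Dicer partner PACT, was at 5.91 to 6.26 in wild type and at 7.22, 7.18 and 7.61 in transgenic cells, a rise of 1.23 ± 0.14 (SE, adjusted p = 0.00956).

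Each target's difference was recomputed under 21 other settings of the filter, scaling, variance model, arrays and threshold, the last an adjusted p under 0.1. The number of targets below 0 was 19 to 21 in all of them and the median difference -0.22 to -0.14, while the number that passed changed widely. Hivep2 passed in 11 of the 21 and Myb in 12, and Jarid2, Dhx40 and Tle4, which did not pass as reported above, passed in 8 each. Each of these counts includes the setting with the looser threshold.

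**Figure D5:**
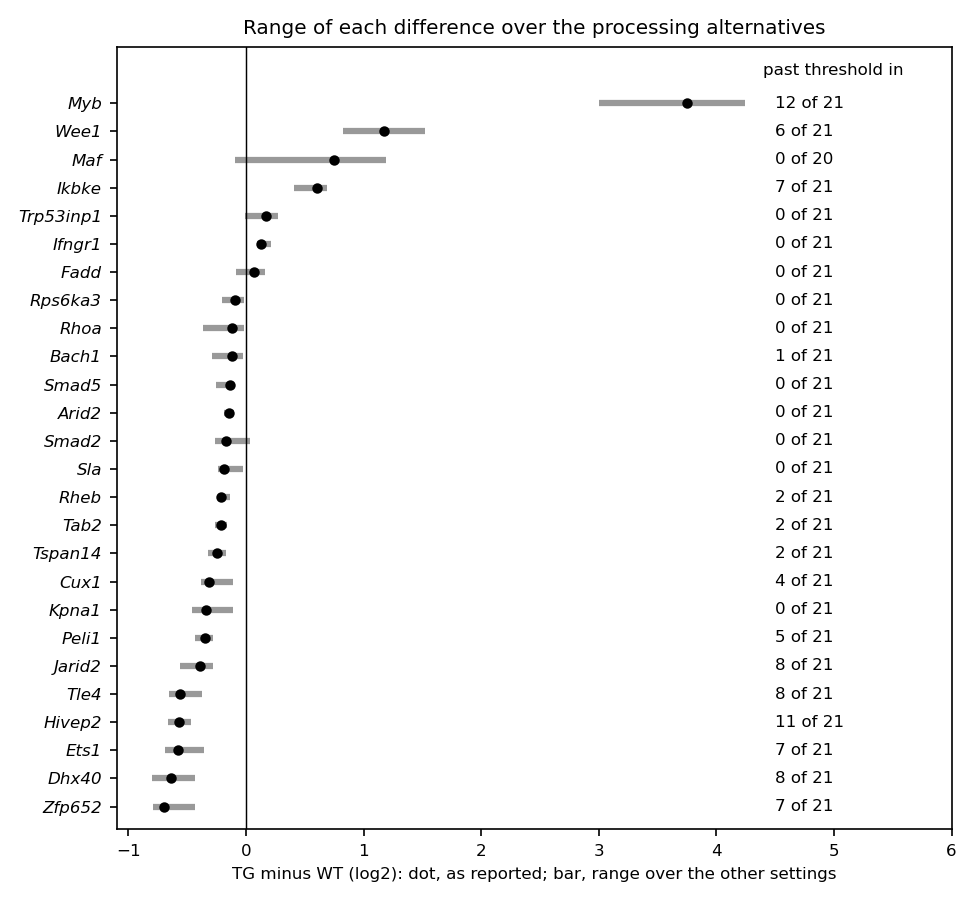
For each tested target, the difference between transgenic and wild-type B cells (TG minus WT, log2) as reported (dot), its range over the other settings (bar) and the number of those settings in which it passed the threshold. That threshold was an adjusted p under 0.05, or under 0.1 in the setting that loosened it. The bars of Hivep2, Zfp652, Dhx40, Ets1, Tle4 and Jarid2 stay below 0, and those of Maf, Smad2, Trp53inp1 and Fadd cross it.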

How the data were processed

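Gene expression was measured in splenic B cells of 4 wild-type and 3 Eµ-miR-155 transgenic mice, 1 array each; each array is taken as 1 mouse, because the series' design text counts mice. The authors deposited log2 values from GCRMA (version not given), per the submitters' processing notes. This method removes background estimated from probe sequence and normalizes arrays by quantiles. Between 38.0% and 39.2% of the probe sets of an array lay within 0.005 of the minimum, which compresses differences of dim genes, and 45.9% to 47.9% exceeded 4. Precision is limited by the number of arrays.

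Of 45101 probe sets, 64 are controls, 34945 name 1 gene, 932 name several and 9160 none. Those above 4 on at least 3 of the 7 arrays were tested (20994), and each gene was read from its brightest tested probe set. TG and WT were compared by limma 3.58.1 (R 4.3.3, lmFit, eBayes with intensity trend), two-sided. All tested probe sets entered the Benjamini-Hochberg adjustment, with a threshold of 0.05. All 31 targets were named whatever their values, with up to 3 genes of smallest p from other lists. The targets and lists were chosen with earlier results of these data known. Same-numbered replicates were not paired by the labels, and their deviations from the group means had correlations of -0.29 to -0.04. The procedure was tested on simulated data. No scan date was used, so no batch other than sex could be examined.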

Additional observations from a re-analysis of the deposited data

Results flagged for a closer look

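In the wild-type group of 4 arrays, 3 of the 26 tested targets had 1 array far from the other 3. Chance alone meets the rule used in about 1 of 20 groups of normally spread values. Its share over all genes is not given here. Hivep2 was at 9.51 on wild-type replicate 3, against 9.86 to 9.88 on the others. Bach1 was at 9.24 on wild-type replicate 4, against 8.99 to 9.02. Maf was at 5.70 on wild-type replicate 3, against 5.52 to 5.53, with the same value on replicates 1 and 4. Such ties make the rule easier to meet. Without wild-type replicate 3 the difference of Hivep2 was -0.66 and still passed (limma adjusted p = 0.0310). Without wild-type replicate 4 the difference of Bach1 was -0.06.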

How the results depend on the processing

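With the 21 alternatives, 443 of 545 recomputed differences of single targets kept their direction and their side of the threshold, 61 newly passed, 33 no longer passed and 8 changed sign. The median difference and the number of targets below 0 moved by less than the spread between replicates in all 21. Targets passing as lower (1 as reported) numbered 6 with the filter at 6 or robust eBayes, 7 with quantile normalization, with array medians subtracted or with the mean of tested probe sets, 12 with array weights (estimated without full convergence) and 10 at an adjusted p under 0.1. They numbered 0 with no filter, with the Xist covariate, against wild-type replicates 1 and 2, with the replicate block, and without both wild-type replicate 4 and transgenic replicate 3. Targets passing as higher (2 as reported) numbered 3, with Wee1 newly passing, with the filter at 6, quantile normalization, array medians subtracted, robust eBayes, array weights or an adjusted p under 0.1. They numbered 1 with no intensity trend, with values under 4 set at 4 and without those 2 arrays, and 0 with no filter, with the Xist covariate, against wild-type replicates 1 and 2 and with the block. Leaving out 1 array at a time gave 0 to 4 lower and 0 to 2 higher. Of all genes tested (1016 passing as reported), 116 passed with no filter, 2763 with array weights, 156 with the Xist covariate, 12 against wild-type replicates 1 and 2, 408 without those 2 arrays and 1863 at an adjusted p under 0.1, and 87 to 1074 when 1 array at a time was left out (87 without transgenic replicate 2). No filter tests more probe sets and the reduced fits have fewer arrays; otherwise the cause was not tested.

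Fadd changed sign with array weights (-0.0297), the Xist covariate (-0.0876), against wild-type replicates 1 and 2 (-0.0809) and without wild-type replicate 3 (-0.0460, and up to 0.158 with other single arrays left out). Maf did without transgenic replicate 3 (-0.0827, and up to 1.19 with other single arrays left out) and without both wild-type replicate 4 and transgenic replicate 3 (-0.0963), Smad2 without these 2 (0.0312; -0.264 to -0.0128 with 1 array left out), and Trp53inp1 without transgenic replicate 3 (-0.00963, up to 0.271 otherwise). The replicate number as a block, on replicates 1 to 3, left 3 genes in all and 0 targets; the numbers do not pair the mice, and in deviations from the group means wild-type replicates 1 and 2 both correlated best with transgenic replicate 3.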
